A study of Mus musculus with 10 samples.

Results

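Hepatocytes depleted of KAT2B were compared with hepatocytes carrying a control hairpin. The comparison was chosen by the hairpin named in the library labels, and 7 of the 10 libraries in the series belong to it, 3 with a hairpin against Kat2b (shKAT2B) and 4 with a non-specific hairpin (shNS). KAT2B, also called PCAF, is a lysine acetyltransferase that adds acetyl groups to histone H3 and to other nuclear proteins. It is a catalytic subunit of the SAGA and ATAC coactivator complexes, where KAT2A can take its place, and it binds the CREB coactivators CBP and p300. In the liver CREB carries the fasting signal of glucagon to the genes of glucose production.

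All libraries came from primary hepatocytes of male C57BL6/J mice aged 10 weeks. The cells of every group received an adenovirus, at 2 to 4 plaque-forming units per cell, that carried their hairpin, and were kept in culture for 72 hours. They were then given 100 nM glucagon or phosphate-buffered saline (PBS) for 90 minutes. Each library pooled RNA from 3 culture dishes, and the labels do not say whether libraries came from separate mice, and p-values here then reflect only how far the libraries spread, which may be technical. The shNS group had 2 PBS libraries (A and B) and 2 glucagon libraries (A and B), while the shKAT2B group had 1 PBS library (A) and 2 glucagon libraries (A and B). The sequence and number of hairpins per target are not given in the sources used here, so the hairpin and the loss of its target cannot be told apart. Another 3 libraries, with a hairpin against Wdr5 (shWDR5, 1 PBS and 2 glucagon), entered the fits to help estimate the spread and served for 1 comparison. The comparisons address how loss of KAT2B changed gene expression in hepatocytes, as the series title states.

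RNA was measured as intensity on Affymetrix arrays, with library medians between 282.1 and 298.2, and levels are given as log2(intensity + 1). Values per library are listed in the order PBS A, PBS B, glucagon A, glucagon B for shNS and PBS A, glucagon A, glucagon B for shKAT2B. Libraries also differed in a way that hairpin and treatment did not account for. The first component of the residuals held 78.0% of their variance and separated 4 libraries, all lettered A (1 of shKAT2B, 2 of shNS and 1 of shWDR5), from the other 6, which included the lone shKAT2B PBS library. Counts of called genes are given below also with this split of libraries as a term where it moves them by over 1.5 times. The split was read from the same data, so p-values with it are too small.

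KAT2B depletion was followed by a broad change of modest size. Of 11480 genes tested, 1792 (15.6%) were called at an adjusted p below 0.05 (limma, Benjamini-Hochberg adjustment, treatment as a covariate), 764 of them higher (6.66%) and 1028 lower (8.95%). The median size of the called differences was 0.43 on the log2 scale, and 1309 of the called genes changed by less than 1.5-fold. At least 2-fold changes were called for 48 genes that rose and 72 that fell. The median difference of all genes tested was 0.01. Shares of this size are the background against which the gene groups below are read. Without the shKAT2B PBS library the count dropped to 598, without shKAT2B glucagon B to 968 and without shNS glucagon A to 1107, and with the split of libraries as a term it was 4768 (41.5%), with 2465 higher (21.5%) and 2303 lower (20.1%). The libraries of the 2 hairpins did not overlap within either treatment for 1774 of the called genes and for 33% of all genes tested.

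The targeted gene was measured first. Kat2b (feature 10445909) stood at 9.40, 9.42, 9.41 and 9.40 in the shNS libraries and at 6.61, 6.93 and 6.60 in the shKAT2B libraries. All 3 shKAT2B libraries were far below all 4 shNS libraries, in PBS and in glucagon alike. The fitted difference was -2.70 ± 0.09 on the log2 scale (standard error, 3 against 4 libraries), a 6.52-fold lower level (limma adjusted p 2.75e-06), and Kat2b had the smallest p of all genes. Every later sign in this comparison is shKAT2B minus shNS, and an error after ± is the model's standard error.

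**Figure D1:**
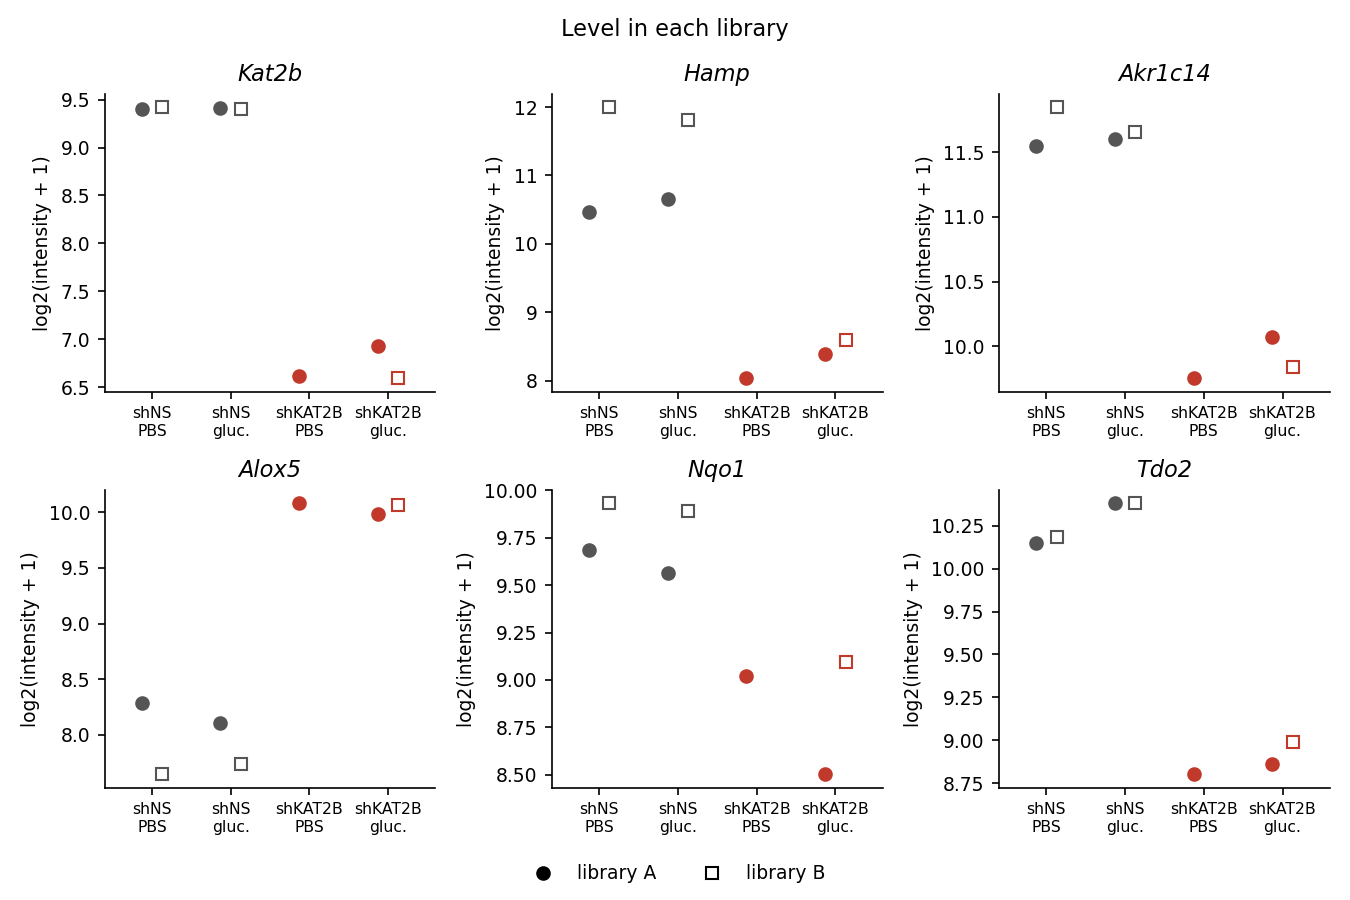
Level of 6 genes, as log2(intensity + 1), in each shNS library (grey) and each shKAT2B library (red), with filled circles for library A and open squares for library B. Kat2b, Hamp, Akr1c14, Nqo1 and Tdo2 lie lower and Alox5 lies higher in all 3 shKAT2B libraries, and the vertical axes do not start at 0.

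Few other genes of the acetyltransferase machinery were called over all libraries. Of 29 tested subunits of SAGA and ATAC, Kat2b fell and 1 rose. That 1 was Taf9b, a paralog of the shared subunit TAF9, by 0.31 ± 0.07 (limma adjusted p 0.0212). Taf9b was not called in 5 of the fits that left out a library (limma adjusted p up to 0.112, without the shKAT2B PBS library). Kat2a, the paralog that can occupy the same place in both complexes, differed by 0.07 ± 0.09 (limma adjusted p 0.657), and Wdr5, a subunit of ATAC, by less than its standard error of 0.07 (limma adjusted p 0.991). The median over the 29 subunits was 0.02, with 17 positive, and with the split of libraries as a term 6 rose and 5 fell. Usp22 and Supt3, picked with their values seen, differed by -0.43 ± 0.17 and -0.34 ± 0.13 and were not called (limma adjusted p 0.132 and 0.116). Among 17 other acetyltransferases and CREB coactivators 1 gene rose and 1 fell. Crtc1, a CREB coactivator that is released to the nucleus by cyclic AMP, rose by 0.29 ± 0.08, and Atf1, a close relative of CREB, fell by 0.43 ± 0.11. Neither held when shKAT2B PBS A or shKAT2B glucagon B was left out (limma adjusted p up to 0.163). In all, Crtc1 lost its call in 8 of the fits that left out a library and Atf1 in 5. With the split as a term 2 of the 17 were higher and 3 lower. None of 16 lysine deacetylases was called (3 higher and 3 lower with the split as a term), and Sirt3, a mitochondrial deacetylase, had the smallest p among them with a difference of 0.18 that did not pass (limma adjusted p 0.123).

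**Figure D2:**
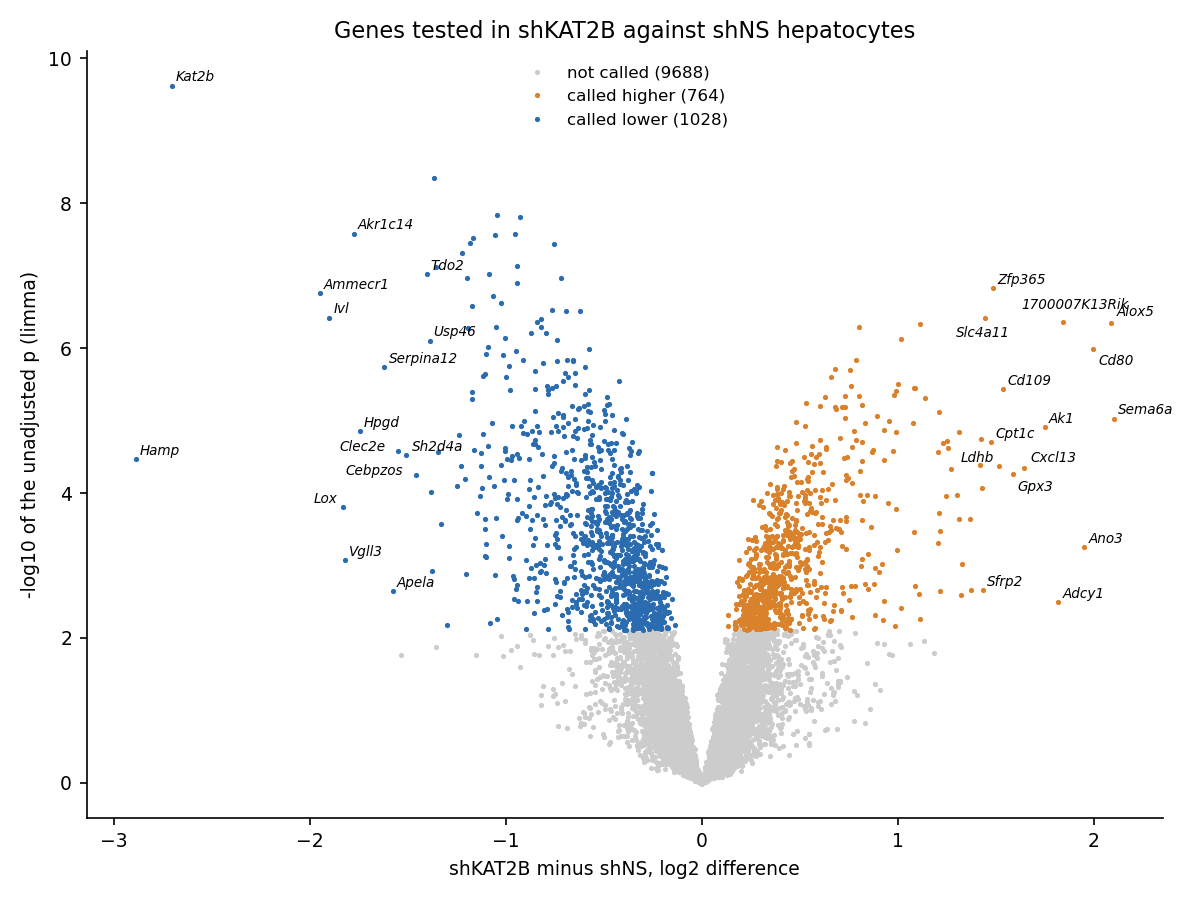
Difference of each of 11480 genes (horizontal axis, log2) against -log10 of its unadjusted p (vertical axis), with 764 genes called higher in orange, 1028 called lower in blue and the others in grey. The 30 labelled genes are the 15 highest and the 15 lowest called genes whose libraries did not overlap within either treatment.

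Hepcidin, encoded by Hamp, had the most negative difference of the called genes. It is the liver hormone that makes cells degrade the iron exporter ferroportin, and its gene is driven by BMP and SMAD signals and by IL-6 through STAT3. Hamp (feature 10562169) stood at 10.46, 12, 10.66 and 11.81 in shNS and at 8.04, 8.39 and 8.59 in shKAT2B. The shNS B libraries were above the A libraries by over 1 unit, and even so every shKAT2B library lay below every shNS library. The difference was -2.89 ± 0.38, or 7.41-fold (limma adjusted p 0.00165). The neighbouring paralog Hamp2 stood at 7.42, 8.12, 7.42 and 8.08 in shNS and at 7.36, 7.13 and 7.29 in shKAT2B, a difference of -0.46 ± 0.21 that was not called (limma adjusted p 0.178). Whether probes of the 2 paralogs share signal was not tested.

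The Hamp promoter is shown because motifs of the factors named above lie close together in it. The 250 bases before the start site, from RefSeq on GRCm38.p6 (chr7:30944030-30944279, minus strand), are printed 5′ to 3′ with capitals for matches to GGCGCC (the letters of the BMP-responsive element of hepcidin genes), TTCNNNGAA (a STAT site) and TGAGTCA (an AP-1 site, also called TRE).
Hamp: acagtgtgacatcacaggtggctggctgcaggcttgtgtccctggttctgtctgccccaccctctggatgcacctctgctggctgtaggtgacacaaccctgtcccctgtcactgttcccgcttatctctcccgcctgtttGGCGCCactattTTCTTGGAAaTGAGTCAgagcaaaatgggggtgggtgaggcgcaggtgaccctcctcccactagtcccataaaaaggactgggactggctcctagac
GGCGCC lies at bases -109 to -104 from the start, TTCTTGGAA at -97 to -89 and TGAGTCA at -87 to -81. Both strands were searched. GGCGCC is held by 9.59% of the 32851 promoters of the same length in the table and by 19.9% of the 9236 tested genes with a promoter there, TTCNNNGAA by 7.02% and 6.89%, and TGAGTCA by 4.46% and 4.06%. A match of letters is not evidence of binding.

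The other genes of hepcidin control and iron handling moved by far less than Hamp. Of 34 tested in the list, which counts Hamp itself, 3 rose and 7 fell (Hamp among them), with a median of -0.14. The number called was between 2 (without shKAT2B PBS A) and 11 as each library was left out. With the split as a term 5 were higher and 18 lower. Slc40a1, which encodes ferroportin itself, stood at 11.40, 11.17, 11.44 and 11.19 in shNS and at 11.66, 11.68 and 11.71 in shKAT2B. It rose by 0.38 ± 0.08 (limma adjusted p 0.01, or 0.0662 without the shKAT2B PBS library). Hmox1, the haem-degrading oxygenase, fell by 0.66 ± 0.12 (limma adjusted p 0.00662), and Ireb2, an RNA-binding sensor of cellular iron, fell by 0.54 ± 0.10 (limma adjusted p 0.00825, or 0.0711 without that library). Other members were picked with their values seen, to show the BMP pathway by role. The type I receptor Acvr1 rose by 0.36 and the hemojuvelin partner Neo1 by 0.48, while the signal transducer Smad5 fell by 0.38 and the BMP target genes Id1, Id2 and Atoh8 fell by 0.40, 0.21 and 0.62. None of these 6 was called without the shKAT2B PBS library, and each also lost its call without at least 1 other library. The BMP targets Smad6, Smad7 and Id3 of the same list were not called (limma adjusted p 0.823, 0.991 and 0.0749), and Id3 differed by -0.31 ± 0.10. The hemojuvelin gene Hjv differed by -0.58 ± 0.34 and the transferrin receptor gene Tfr2 by -0.20 ± 0.08, and neither was called.

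Genes of detoxification were lower as a group. In the list of glutathione S-transferases and targets of NRF2, the transcription factor that switches on antioxidant genes, 16 of 25 tested members fell and 1 rose, beside backgrounds of 8.95% and 6.66%. The median of the list was -0.35 against 0.01 for all genes. The glutathione S-transferases attach glutathione to reactive compounds. Gsta3 stood at 12.14, 12.13, 12.09 and 12.06 in shNS and at 11.43, 11.30 and 11.30 in shKAT2B. It fell by 0.75 ± 0.04 (limma adjusted p 4.19e-05), and the libraries of each hairpin lay far closer to each other than to those of the other. Gsta4 fell by 0.72 ± 0.05 and Gstm1 by 0.58 ± 0.05. The exception was Gstt3, which rose by 0.39 ± 0.07 (limma adjusted p 0.00495, or 0.0579 without the shKAT2B PBS library).

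The same list holds antioxidant enzymes outside the transferase families. Srxn1, which repairs oxidised peroxiredoxins, stood at 12.09, 12.05, 12.14 and 12.17 in shNS and at 11.12, 11.10 and 11.33 in shKAT2B. It fell by 0.94 ± 0.06 (limma adjusted p 6.7e-05). The glutathione synthesis genes Gclc and Gclm fell by 0.91 ± 0.11 and 0.66 ± 0.10, the thioredoxin reductase gene Txnrd1 by 0.68 ± 0.08 and the quinone reductase gene Nqo1 by 0.88 ± 0.16, and these 4 were picked with their values seen. Nqo1 stood at 9.68, 9.93, 9.56 and 9.89 in shNS and at 9.02, 8.50 and 9.09 in shKAT2B, with no overlap. Nfe2l2, which encodes NRF2, differed by 0.03 ± 0.07 (limma adjusted p 0.85), and Keap1, its inhibitor, by -0.07 ± 0.15 (limma adjusted p 0.797). The lowest number of called members of the list was 11, without the shKAT2B PBS library, and with the split of libraries as a term 20 members fell and 2 rose.

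Promoters of Srxn1 and Gsta3 are shown as those of the members with the smallest p in the list. They are from RefSeq on GRCm38.p6, at chr2:152105274-152105523 (plus strand) and chr1:21240335-21240584 (plus strand), and capitals mark TGAGTCA in Srxn1 and TGACATTGC, a match to the antioxidant response element core TGACNNNGC, in Gsta3.
Srxn1: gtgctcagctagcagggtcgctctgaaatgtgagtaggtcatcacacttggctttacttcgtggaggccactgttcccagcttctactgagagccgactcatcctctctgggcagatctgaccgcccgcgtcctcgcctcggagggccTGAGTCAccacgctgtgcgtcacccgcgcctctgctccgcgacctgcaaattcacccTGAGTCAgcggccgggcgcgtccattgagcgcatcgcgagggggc
Gsta3: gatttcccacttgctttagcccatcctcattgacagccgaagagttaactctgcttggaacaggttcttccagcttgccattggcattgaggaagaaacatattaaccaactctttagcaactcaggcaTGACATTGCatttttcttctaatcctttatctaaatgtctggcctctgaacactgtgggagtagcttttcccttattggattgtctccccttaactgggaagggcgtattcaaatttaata
Srxn1 holds TGAGTCA at bases -102 to -96 and again at -45 to -39. Gsta3 holds TGACATTGC at -121 to -113. Among the 13 members called lower that have a promoter in the table, 4 (30.8%) hold the core TGACNNNGC on either strand, against 14% of the 9236 tested genes with a promoter, and 2 (15.4%) hold TGAGTCA, against 4.06%. TGACNNNGC is held by 10.2% of all promoters in the table. Of the other motifs searched, TTCNNNGAA is held by 2 of the 13 (15.4%), against 6.89%. TTGCNNAA (a site of C/EBP factors) is held by 2 (15.4%), against 8.89%, and the TATA box TATAAA by 3 (23.1%), against 8.1%. GGCGCC is held by 1 (7.69%), against 19.9%, the CREB site TGACGTCA by 0, against 2.97%, and its part TGACG by 4 (30.8%), against 30.7%. These shares rest on few genes and were not tested.

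The glucuronosyltransferases, which make compounds soluble by attaching glucuronic acid, fell the most as a group. Of 7 tested glucuronosyl- and sulfotransferase genes 5 fell and 0 rose, and the median was -0.71. Ugt2b5 stood at 9.81, 10.35, 10.34 and 10.37 in shNS and at 8.79, 8.73 and 9.13 in shKAT2B. It fell by 1.35 ± 0.17 (2.54-fold, limma adjusted p 0.00146). Ugt2b38 fell by 0.97 ± 0.13, Ugt2b35 by 0.81 ± 0.07 and Ugt2b36 by 0.71 ± 0.07. These 4 Ugt2b genes stayed called when any library was left out. They had non-overlapping libraries, as had 26.6% of all genes tested. Ugt2b34, also tested, differed by -0.24 ± 0.07 and was not called (limma adjusted p 0.0519). The Ugt2b genes are close copies in 1 cluster, so probes may share signal, and the 4 are not independent measurements.

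The promoters of Ugt2b5 (chr5:87140341-87140590), Ugt2b36 (chr5:87092556-87092805) and Ugt2b38 (chr5:87424204-87424453), all on the minus strand of GRCm38.p6 in RefSeq, are shown because they share an identical run of 22 bases, in capitals, next to the start site.
Ugt2b5: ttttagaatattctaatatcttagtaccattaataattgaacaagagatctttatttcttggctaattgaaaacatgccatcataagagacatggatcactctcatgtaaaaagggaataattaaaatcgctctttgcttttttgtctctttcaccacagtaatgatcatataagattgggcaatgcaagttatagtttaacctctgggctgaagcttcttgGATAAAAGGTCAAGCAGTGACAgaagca
Ugt2b36: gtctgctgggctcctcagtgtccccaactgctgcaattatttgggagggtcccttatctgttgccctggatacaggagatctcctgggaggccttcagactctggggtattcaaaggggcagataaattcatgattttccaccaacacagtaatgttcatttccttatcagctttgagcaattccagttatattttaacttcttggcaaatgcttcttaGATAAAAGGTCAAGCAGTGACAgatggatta
Ugt2b38: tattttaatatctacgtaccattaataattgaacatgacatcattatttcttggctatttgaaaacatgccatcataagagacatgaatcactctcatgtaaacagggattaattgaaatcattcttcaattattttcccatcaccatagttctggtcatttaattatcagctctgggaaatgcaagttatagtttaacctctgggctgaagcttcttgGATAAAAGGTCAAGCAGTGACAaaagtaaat
The run begins 28 bases before the start in Ugt2b5 and 31 bases before it in Ugt2b36 and Ugt2b38. Of all promoters in the table only 4 hold it, these 3 and that of Ugt2b37.

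**Figure D3:**
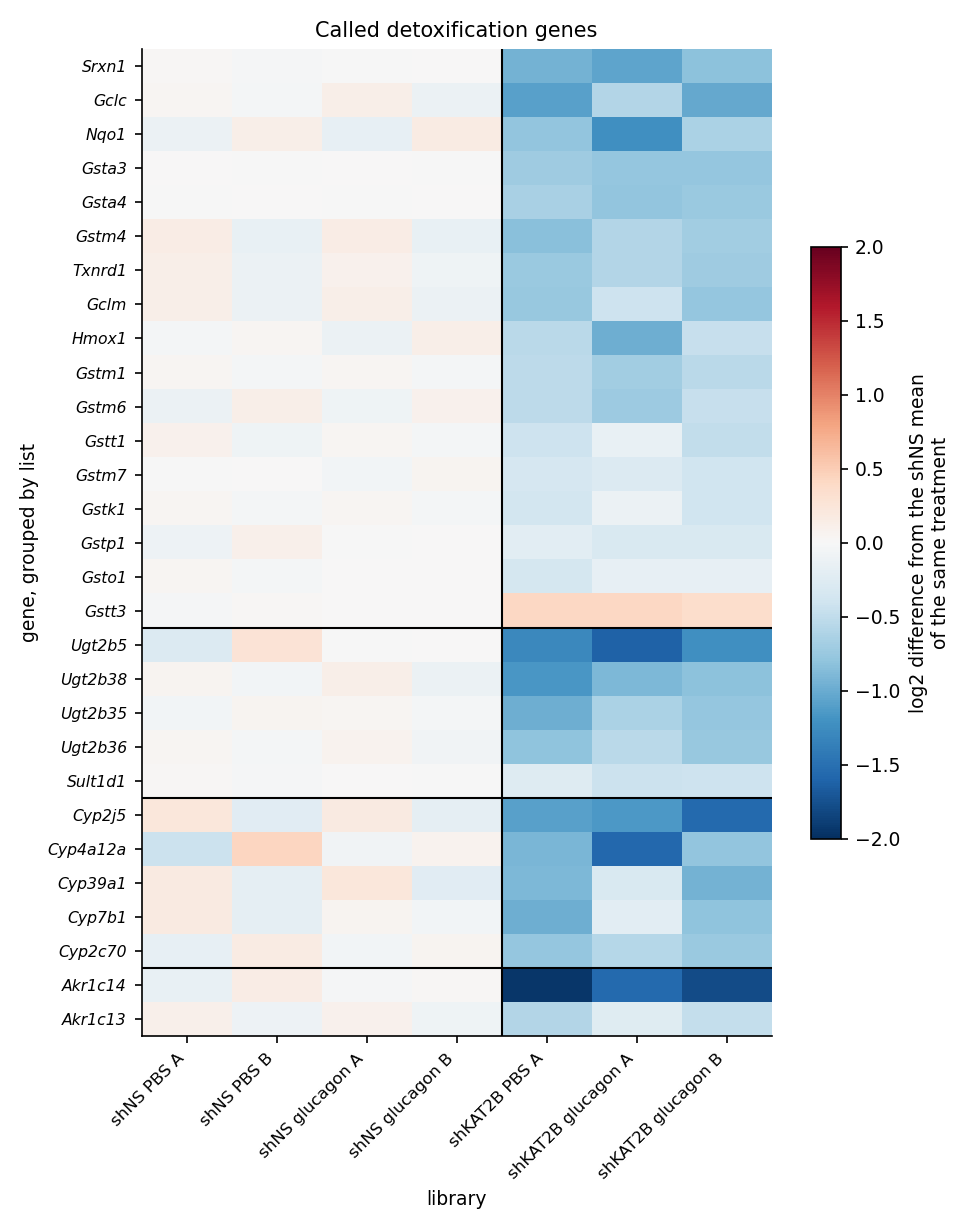
Log2 difference of each library from the shNS mean of the same treatment (colour, limits at -2 and 2) for the 29 called genes of 4 detoxification lists, with shNS libraries left and shKAT2B libraries right of the vertical line. From the top the blocks are glutathione S-transferases and NRF2 targets, glucuronosyl- and sulfotransferases, cytochrome P450s and aldo-keto reductases. In all 3 shKAT2B libraries 28 genes are lower and 1 (Gstt3) is higher, which the choice of called genes favours. Members that were not called are left out.

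Of 23 tested cytochrome P450 genes 5 fell and 0 rose, with a median of -0.23. Cyp2j5, an arachidonic acid epoxygenase, fell by 1.23 ± 0.17 (limma adjusted p 0.00184), and Cyp2c70, which makes the muricholic acids of mouse bile, fell by 0.69 ± 0.11 (limma adjusted p 0.00317). Cyp4a12a and Cyp39a1 fell by 1.06 ± 0.23 and 0.73 ± 0.17 and were not called without the shKAT2B PBS library or without shNS glucagon A, and Cyp39a1 also not without shKAT2B glucagon B (limma adjusted p up to 0.159). The number of called P450 genes was 2 without either of those libraries and 12 with the split of libraries as a term. Among 10 aldo-keto reductases 2 fell and 0 rose, with a median of -0.06, and with the split as a term 2 were higher and 2 lower. Akr1c14 (feature 10403291), a steroid dehydrogenase, stood at 11.55, 11.85, 11.60 and 11.66 in shNS and at 9.75, 10.07 and 9.84 in shKAT2B. It fell by 1.78 ± 0.10, or 3.42-fold (limma adjusted p 4.19e-05), with a gap of over 1 unit between the groups. Its relative Akr1c13 fell by 0.45 ± 0.09 (limma adjusted p 0.0123, or up to 0.112 without shKAT2B PBS A or shKAT2B glucagon B). The 250 bases before the Akr1c14 start held none of the 8 motifs searched.

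Among secreted and defining genes of hepatocytes falls and no rises were called. Of 22 tested, 10 fell and 0 rose, beside a background of 8.95% lower, and the median was -0.45. Tdo2, which opens the ring of tryptophan, stood at 10.15, 10.18, 10.38 and 10.38 in shNS and at 8.80, 8.86 and 8.99 in shKAT2B. It fell by 1.40 ± 0.09 (limma adjusted p 7.26e-05). Ttr, the thyroid hormone and retinol carrier transthyretin, fell by 0.91 ± 0.08, Apoa2, an apolipoprotein of high-density lipoprotein, fell by 1.02 ± 0.14, and Serpina1c, an antitrypsin, by 0.42 ± 0.04. Alb, albumin, stood at 13.65, 13.84, 13.75 and 13.83 in shNS and at 13.59, 13.60 and 13.75 in shKAT2B, and its difference of -0.13 ± 0.07 was not called (limma adjusted p 0.249). The lowest number of called members was 5, without the shKAT2B PBS library, and with the split of libraries as a term 18 fell. The log2 of the summed intensity of the list was 16.32 to 16.40 in shKAT2B and 16.54 to 16.74 in shNS. In such bulk samples fewer cells of a type and less RNA per cell cannot be told apart.

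Several transcription factors that define hepatocytes were lower. Of 30 tested, 7 fell and 0 rose, with a median of -0.17. Nr1i2, the pregnane X receptor that senses foreign compounds and drives P450 genes, stood at 9.52, 9.28, 9.49 and 9.22 in shNS and at 7.98, 8.62 and 8.12 in shKAT2B. It fell by 1.16 ± 0.15, or 2.24-fold (limma adjusted p 0.00144), and was the 1 factor of the list called in every fit that left out a library. Hnf4a, a master regulator of hepatocyte genes, fell by 0.33 ± 0.06 (limma adjusted p 0.00841), Foxa3, a pioneer factor, by 0.43 ± 0.08, and Prox1, a homeobox factor, by 0.53 ± 0.11. Those 3 were not called without the shKAT2B PBS library (limma adjusted p 0.0546, 0.0629 and 0.0996), and Prox1 also not without shKAT2B glucagon B. Onecut1 and Cebpa, picked with their values seen, fell by 0.70 and 0.35. With the split of libraries as a term 15 factors were lower and 3 higher.

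Of 29 tested genes of clotting and complement, 2 rose and 6 fell, with a median of -0.11. Without the shKAT2B PBS library 2 stayed called, Kng1 and Serpind1, and neither rise did, while with the split as a term 3 were higher and 12 lower. Serpind1, the thrombin inhibitor heparin cofactor II, fell by 0.94 ± 0.15 (limma adjusted p 0.0034) and Kng1, kininogen, by 0.47 ± 0.07 (limma adjusted p 0.00233). F2, prothrombin, fell by 0.41 ± 0.08 and Vkorc1, the enzyme that recycles vitamin K, rose by 0.41 ± 0.08, and neither was called without the shKAT2B PBS library (limma adjusted p 0.0847 and 0.0582). Of 27 acute phase and NF-kB genes 1 rose and 3 fell, and none was called without the shKAT2B PBS library (3 higher and 13 lower with the split as a term). Crp, C-reactive protein, fell by 0.74 ± 0.13 (limma adjusted p 0.00658) and Icam1, an adhesion molecule, rose by 0.61 ± 0.14 (limma adjusted p 0.0195).

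Enzymes of the eicosanoid pathways held a strong rise and a strong fall. Leukotrienes and prostaglandins are signalling lipids made from arachidonic acid. Alox5 (feature 10547153), the lipoxygenase that opens leukotriene synthesis, stood at 8.28, 7.65, 8.11 and 7.74 in shNS and at 10.08, 9.98 and 10.06 in shKAT2B. The shKAT2B libraries lay close together and over 1.5 units above every shNS library. The rise was 2.09 ± 0.16, or 4.25-fold (limma adjusted p 0.00016). Its helper gene Alox5ap, which presents the substrate, differed by 0.37 ± 0.19 and was not called (limma adjusted p 0.237). Hpgd, the dehydrogenase that inactivates prostaglandins, stood at 10.88, 10.31, 10.99 and 10.55 in shNS and at 8.67, 9.32 and 8.96 in shKAT2B. It fell by 1.75 ± 0.21, or 3.35-fold (limma adjusted p 0.00105). Ptgs2, the inducible cyclooxygenase that makes prostaglandins, fell by 0.67 ± 0.14 and Ptgr1, a prostaglandin reductase, by 0.32 ± 0.05, both called only with the shKAT2B PBS library included (limma adjusted p 0.0572 and 0.0567 without it). In all, 1 of 11 tested genes of these pathways rose and 4 fell, with 4 higher and 5 lower with the split as a term. Leukocytes also express Alox5. The markers of Kupffer cells and leukocytes are given below, and their part in the rise of Alox5 was not tested.

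Beside Kat2b, Hamp, Akr1c14 and Hpgd, the lowest called genes came from unrelated families. Ammecr1, a gene of the X chromosome, stood at 9.72, 9.68, 9.68 and 9.65 in shNS and at 7.44, 8.16 and 7.67 in shKAT2B. It fell by 1.95 ± 0.14 (3.86-fold, limma adjusted p 0.0001). Ivl, involucrin, a protein known from the cornified envelope of skin, fell by 1.90 ± 0.15. Lox, lysyl oxidase, the cross-linker of collagen and elastin, stood at 10.27, 9.79, 9.99 and 9.57 in shNS and at 7.76, 8.71 and 7.85 in shKAT2B. It fell by 1.83 ± 0.30 (limma adjusted p 0.00397). Serpina12, the adipokine vaspin, fell by 1.62 ± 0.15, Clec2e, a C-type lectin, by 1.55 ± 0.20, Sh2d4a, an SH2 domain adaptor, by 1.51 ± 0.20, Cebpzos by 1.46 ± 0.21 and the deubiquitinase gene Usp46 by 1.39 ± 0.12.

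A few of the lowest genes depended on single libraries. Vgll3, a cofactor of TEAD factors, fell by 1.82 ± 0.37 and was not called without shKAT2B PBS A or shKAT2B glucagon B (limma adjusted p up to 0.093). Apela, a ligand of the apelin receptor, fell by 1.58 ± 0.37 and was not called without shNS PBS B, shKAT2B PBS A or shKAT2B glucagon A (limma adjusted p up to 0.114). Pklr, the liver pyruvate kinase and a target of glucose sensing, stood at 12.60, 12.69, 12.45 and 12.70 in shNS and at 11.43, 11.35 and 11.31 in shKAT2B. It fell by 1.22 ± 0.07 (2.34-fold, limma adjusted p 5.09e-05), and with it 3 of 28 tested genes of lipogenesis and glucose sensing fell and 0 rose. Without shKAT2B PBS A or shKAT2B glucagon B 1 gene of that list was called, and with the split as a term 12 were lower and 3 higher.

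The genes that rose most encode proteins of many kinds. Sema6a, a membrane semaphorin, stood at 8.38, 8.69, 8.09 and 8.55 in shNS and at 10.78, 9.90 and 10.79 in shKAT2B. It rose by 2.10 ± 0.24, or 4.3-fold (limma adjusted p 0.000876). Cd80, a co-stimulatory ligand of T cells, stood at 8.07, 7.93, 7.86 and 7.94 in shNS and at 10.15, 9.39 and 10.17 in shKAT2B. It rose by 1.99 ± 0.17 (3.99-fold, limma adjusted p 0.000259). In both genes the shKAT2B library lettered glucagon A was the lowest of the 3 and still above every shNS library. Cxcl13, a chemokine that attracts B cells, rose by 1.64 ± 0.23, Gpx3, the secreted glutathione peroxidase, by 1.59 ± 0.22, and Cd109, a surface protein that binds TGF-beta, by 1.54 ± 0.16. The second feature of Cd80 on the array differed by 1.13, in the same direction.

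The 15 highest genes also held several enzymes. Ak1, adenylate kinase, stood at 8.90, 8.06, 8.67 and 8.31 in shNS and at 10.28, 10.20 and 10.24 in shKAT2B. It rose by 1.75 ± 0.20 (limma adjusted p 0.000989). Ldhb, a lactate dehydrogenase subunit of heart, rose by 1.51 ± 0.21, Cpt1c, the brain form of carnitine palmitoyltransferase, by 1.48 ± 0.18, and Slc4a11, a membrane transporter, by 1.45 ± 0.11. Zfp365 rose by 1.49 ± 0.10 and 1700007K13Rik, an open reading frame with no given name, by 1.85 ± 0.14. The calls of 3 genes rested on single libraries. Ano3, of the anoctamin family, rose by 1.95 ± 0.38 (limma adjusted p 0.0598 without shKAT2B PBS A). Adcy1, an adenylyl cyclase, stood at 7.20, 8.36, 7.18 and 8.39 in shNS and at 10.04, 8.51 and 10.10 in shKAT2B, and its rise of 1.82 ± 0.46 was not called without any 1 of shNS glucagon A, shKAT2B glucagon B and shKAT2B PBS A (limma adjusted p up to 0.177). Sfrp2, a secreted modulator of Wnt, rose by 1.43 ± 0.34 and was not called without shNS glucagon A, shNS glucagon B or shKAT2B PBS A (limma adjusted p up to 0.0713).

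**Figure D4:**
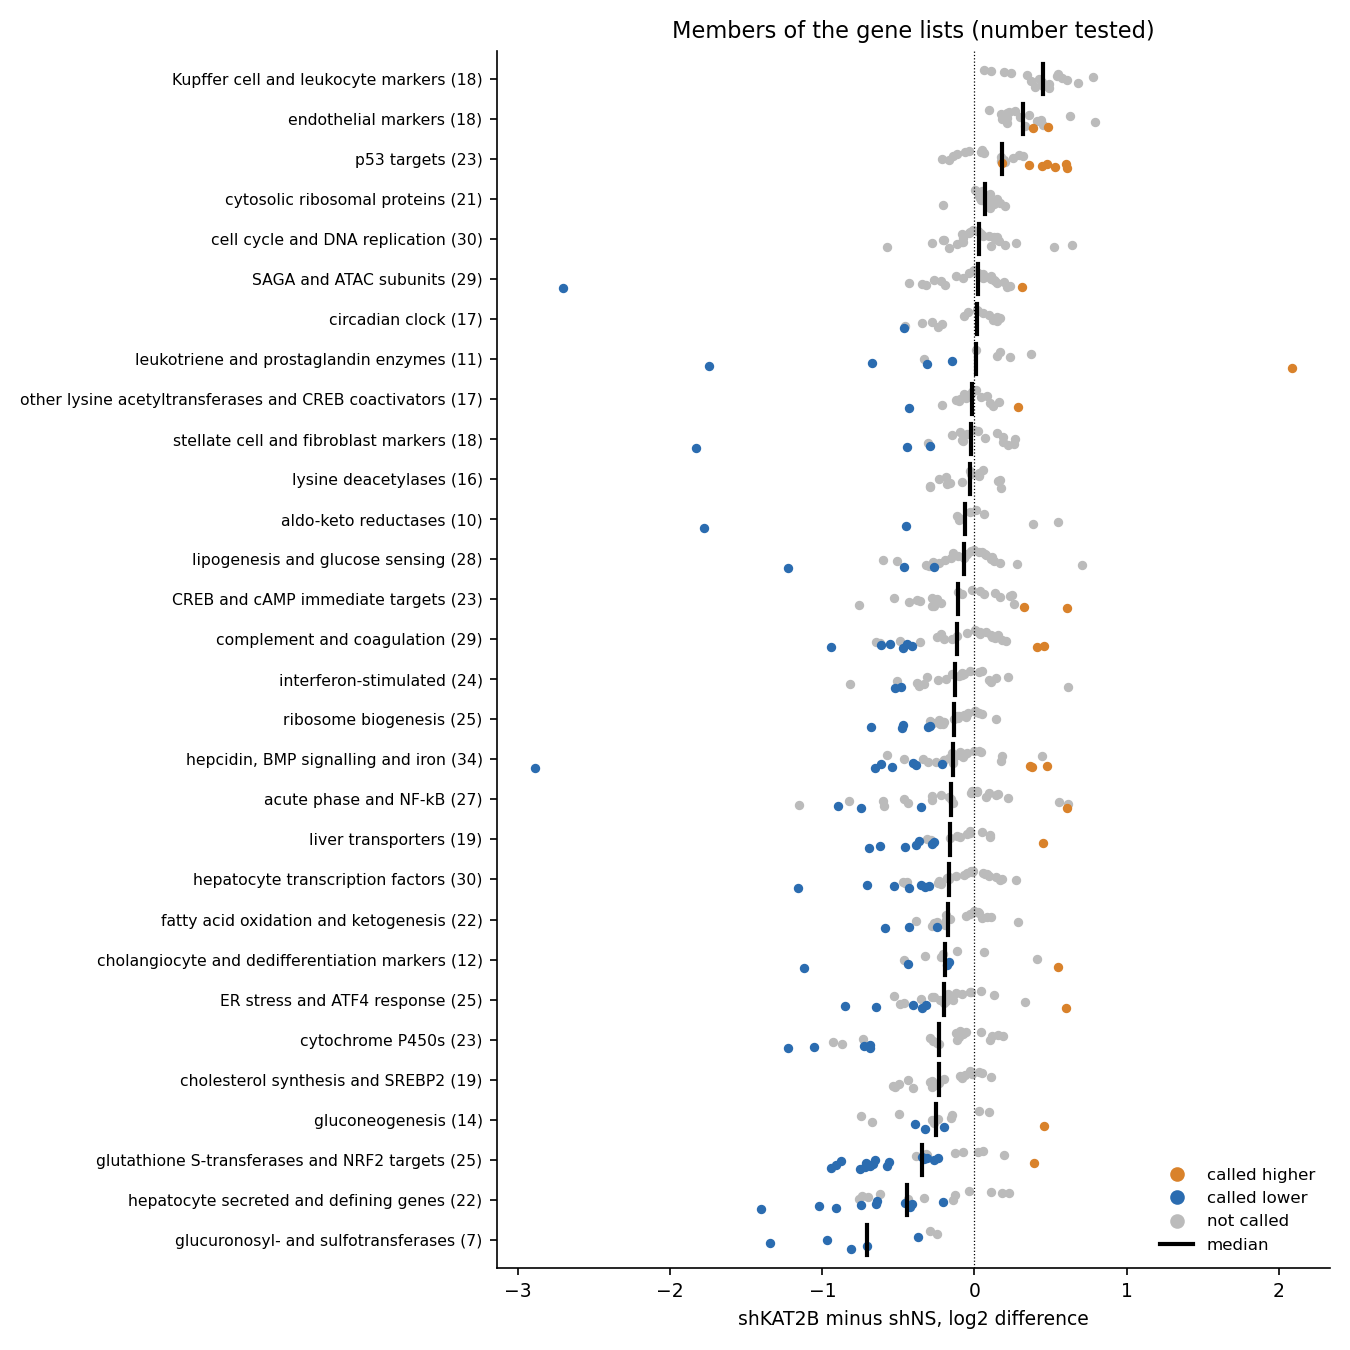
Log2 difference of every tested member (points) of 30 gene lists, with the number tested in brackets, members called higher in orange, members called lower in blue, others in grey and the median of each list as a black bar. Medians run from -0.71 for the glucuronosyl- and sulfotransferases to 0.45 for Kupffer cell and leukocyte markers, of which 0 of 18 were called.

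Among targets of p53, the factor that halts growth after DNA damage, rises and no falls were called. Of 23 tested, 7 rose and 0 fell, beside a background of 6.66% higher, and the median was 0.18. Btg2, an inhibitor of proliferation that also responds to cyclic AMP, stood at 10.23, 10.34, 10.16 and 10.20 in shNS and at 10.94, 10.68 and 10.85 in shKAT2B. It rose by 0.61 ± 0.07 (limma adjusted p 0.000704). Polk, a DNA polymerase that passes damaged bases, rose by 0.53 ± 0.06, Tnfrsf10b, a death receptor, by 0.45 ± 0.07, and Perp, a membrane protein of desmosomes, by 0.36 ± 0.06. Mdm2, the ubiquitin ligase that destroys p53 and is itself its target, differed by 0.04 ± 0.08 (limma adjusted p 0.758). The number called was 4 without the shKAT2B PBS library, and with the split as a term 12 were higher and 1 lower.

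Other stress and growth lists were counted in the same way. Of 25 genes of ER stress and the ATF4 response 1 rose and 5 fell, with a median of -0.20. For this list 1 gene was called without the shKAT2B PBS library, and 2 were higher and 17 lower with the split as a term. Psat1, an enzyme of serine synthesis, fell by 0.34 ± 0.07 (limma adjusted p 0.0125), and Slc7a11, the cystine importer, by 0.85 ± 0.19 (limma adjusted p 0.0163, or 0.0718 without that library), while Sesn2, a sestrin that is also a p53 target, rose by 0.60 ± 0.12 (limma adjusted p 0.00936, or 0.0609 without it). Of 25 ribosome biogenesis genes 5 fell and 0 rose, or 14 and 1 with the split as a term. Wdr43, a factor of the small subunit processome, fell by 0.47 ± 0.05 and Dkc1, the pseudouridine synthase dyskerin, by 0.68 ± 0.10. None of 21 ribosomal protein genes, of 30 cell cycle genes or of 19 cholesterol synthesis genes was called over all libraries. With the split as a term 13 cholesterol synthesis genes were lower and 0 higher (median -0.30), 9 cell cycle genes lower and 1 higher, and 1 ribosomal protein gene lower and 2 higher, beside backgrounds of 20.1% lower and 21.5% higher. Without shKAT2B glucagon A 4 cell cycle genes were called. Over all genes tested, 3331 had an unadjusted p below 0.05. Of 24 interferon-stimulated genes 2 fell and 0 rose, Iigp1, a GTPase of cell defence, by 0.53 ± 0.12 and Oasl1 by 0.48 ± 0.13, and of 17 circadian clock genes 1 fell, the repressor gene Bhlhe40, by 0.46 ± 0.11. With the split as a term 7 interferon genes were lower and 4 higher, and 4 clock genes lower and 3 higher. Iigp1, Oasl1 and Bhlhe40 were each not called without any 1 of shNS glucagon A, shKAT2B PBS A and shKAT2B glucagon B (limma adjusted p up to 0.162). In all, Oasl1 lost its call in 7 of the fits that left out a library.

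Genes of glucose production lie downstream of glucagon. Of 14 tested, 1 rose and 3 fell, with a median of -0.25, and with the split of libraries as a term 1 was higher and 9 lower. The number called was 1 without shNS glucagon A or without shKAT2B PBS A. Tpi1, a shared enzyme of glycolysis and gluconeogenesis, fell by 0.32 ± 0.04 (limma adjusted p 0.00147). Pcx, pyruvate carboxylase, rose by 0.46 ± 0.13 (limma adjusted p 0.0393), and it was not called in 7 of the fits that left out a library. Pck1, the gene of the step after it, stood at 7.08, 7.36, 9.13 and 9.50 in shNS and at 6.98, 7.97 and 8.43 in shKAT2B, and G6pc, the final step of glucose release, stood at 6.09, 5.59, 9.11 and 9.99 in shNS and at 5.88, 8.41 and 8.87 in shKAT2B. For both, the glucagon libraries of shKAT2B were below those of shNS, while the shKAT2B PBS library was just below the shNS PBS libraries for Pck1 and between them for G6pc. Their differences over both treatments, -0.75 ± 0.35 and -0.50 ± 0.39, were not called (limma adjusted p 0.194 and 0.45). Of 23 immediate targets of CREB and cyclic AMP, Btg2 and the phosphodiesterase gene Pde10a rose and 0 fell, while with the split as a term 3 were higher and 8 lower. Pde10a rose by 0.33 ± 0.07 and was not called without shKAT2B PBS A, shKAT2B glucagon B or shNS glucagon A (limma adjusted p up to 0.0892).

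Of 22 genes of fatty acid oxidation 3 fell and 0 rose. None was called without the shKAT2B PBS library, and 10 were lower and 0 higher with the split of libraries as a term. Among them was Hadh, a mitochondrial dehydrogenase, which fell by 0.59 ± 0.10 (limma adjusted p 0.00482, or 0.0516 without the shKAT2B PBS library). Of 19 liver transporters 7 fell and 1 rose, and 3 were called without the shKAT2B PBS library. Slc27a2, a fatty acid transporter and activating enzyme, fell by 0.69 ± 0.11 (limma adjusted p 0.00425), Slc38a2, an amino acid transporter, by 0.46 ± 0.08 (limma adjusted p 0.00446), and Abcc4, an export pump, by 0.62 ± 0.11 (limma adjusted p 0.00661, or 0.0664 without that library).

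Markers of other cells in a hepatocyte culture were measured on the same arrays. All 18 tested markers of Kupffer cells and leukocytes had a positive difference, with a median of 0.45, and 0 were called. Lyz2, lysozyme, differed by 0.49 (limma adjusted p 0.142). Their log2 summed intensity ranged from 13.33 to 14.23 in shKAT2B and from 13.10 to 13.85 in shNS, so the ranges overlapped. With the split of libraries as a term the median was 0.32 and 13 were called higher. All 18 endothelial markers were positive as well, with a median of 0.32, and Flt1 and Eng rose by 0.39 ± 0.08 and 0.48 ± 0.11. Neither of these 2 was called without shKAT2B PBS A or shKAT2B glucagon B (limma adjusted p up to 0.152), and Eng lost its call in 4 of the fits that left out a library. With the split as a term 10 endothelial markers were higher. The endothelial sum was 12.71 to 13.37 in shKAT2B and 12.62 to 13.08 in shNS. Of 18 stellate cell markers 3 fell, Lox, Tagln and Thy1, and 0 rose, or 3 and 6 with the split as a term. Of 12 markers of bile duct cells and dedifferentiation Cd24a rose by 0.55 ± 0.09 and 4 fell, among them Afp, the fetal albumin relative, by 1.12 ± 0.17. These values stand beside the fall of hepatocyte genes and the rises of Alox5, Cd80 and Cxcl13, and the part of other cells in those results was not tested.

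The difference was then taken within each treatment. Under glucagon, where 2 shKAT2B libraries met 2 shNS libraries, 154 genes (1.34%) were called, 51 higher (0.444%) and 103 lower (0.897%). In PBS, where 1 library met 2 and was assumed to vary like the other groups, 58 (0.505%) were called, 10 higher (0.0871%) and 48 lower (0.418%). With the split of libraries as a term the counts were 3127 under glucagon, 1558 higher and 1569 lower, and 2112 in PBS, 878 higher and 1234 lower. Under glucagon 0 were called without shNS glucagon A or shNS glucagon B and 1 without shKAT2B glucagon B, and in PBS 0 without any 1 of both shNS PBS and both shWDR5 glucagon libraries and 1 without shNS glucagon A or shNS glucagon B. All 1792 genes called over both treatments had the same sign in PBS and under glucagon, which the fit over both treatments favours. Of the 30 highest and lowest genes, whose libraries do not overlap by choice, 14 were called under glucagon and 12 in PBS. Hamp differed by -3.20 in PBS and -2.74 under glucagon, Akr1c14 by -1.95 and -1.67, and Alox5 by 2.12 and 2.10.

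**Figure D5:**
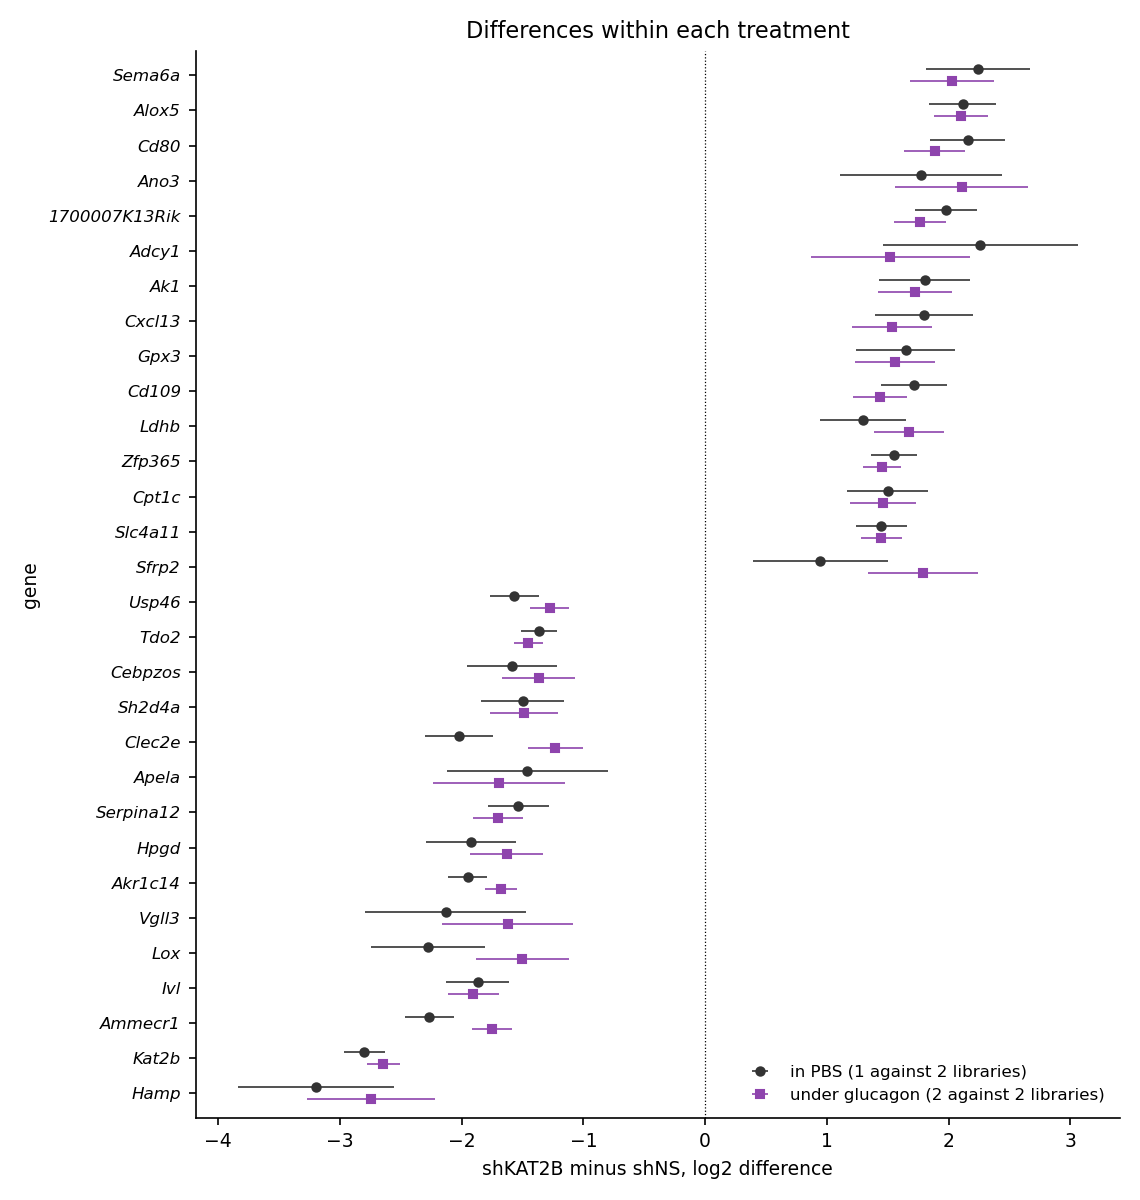
Log2 difference of the 15 highest and 15 lowest called genes in PBS (black circles) and under glucagon (purple squares), with bars for the standard error of the model of groups. All 30 have the same sign in both treatments, as their choice without overlap within either treatment requires. The largest gap is 0.84, for Sfrp2.

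The change of the KAT2B difference with glucagon was tested as an interaction, and 0 genes (0%) were called by limma, with 36 at an unadjusted p below 0.05 and a smallest adjusted p of 0.999. With the split of libraries as a term, 2 genes were called. Efna1, a ligand of Eph receptors, stood at 9.76, 9.67, 11.46 and 11.29 in shNS and at 10.00, 10.54 and 10.52 in shKAT2B, an interaction of -1.16 (limma adjusted p 0.00773). Nr4a1, an orphan nuclear receptor and early target of CREB, stood at 8.13, 8.08, 11.69 and 11.73 in shNS and at 8.28, 10.90 and 10.87 in shKAT2B, an interaction of -1.04 (limma adjusted p 0.015). In both genes the glucagon libraries of shKAT2B lay below those of shNS and the PBS library lay above. The 36 genes at an unadjusted p below 0.05 without the split are far fewer than that threshold passes by chance among 11480 genes. The interaction test was thus too strict here, and its 0 calls do not show that the KAT2B difference is alike in both treatments.

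The 3 shWDR5 libraries gave a second hairpin to set beside these values, with the same shNS controls. For shWDR5 minus shNS, 1246 genes (10.9%) were called, 538 higher (4.69%) and 708 lower (6.17%). For shKAT2B minus shWDR5, which does not rest on the levels of the controls, 2609 genes (22.7%) were called, 1291 higher (11.2%) and 1318 lower (11.5%). That count was 1443 without shWDR5 PBS A, 1519 without shKAT2B PBS A and 5788 with the split of libraries as a term. Of the 1792 genes called against shNS, 1127 were among them in the same direction. Of the 30 highest and lowest genes 29 were, and the other was Sfrp2 (limma adjusted p 0.0535), while 3 of the 30 were called for shWDR5 minus shNS. Both comparisons use the same 3 shKAT2B libraries, and the 30 were chosen by their values there, so both overlaps are favoured in advance. They are not separate support. Hamp was at -2.89 with the hairpin against Kat2b and -0.56 with that against Wdr5, a difference of -2.33 (limma adjusted p 0.00394). Akr1c14 was at -1.78 and 0.03, and Alox5 at 2.09 and 0.12, with differences of -1.81 and 1.97 (limma adjusted p 3.25e-05 and 0.000196). Tdo2 was at -1.40 and 0.68, with a difference of -2.08 (limma adjusted p 1.11e-05).

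Gene groups differed between the hairpins to unequal degrees. Of the 25 glutathione S-transferase and NRF2 genes 11 were lower and 3 higher in shKAT2B than in shWDR5, and 8 were lower and 0 higher in shWDR5 than in shNS. Srxn1 was at -0.94 and 0.09 for the hairpins against Kat2b and Wdr5 (difference -1.03, limma adjusted p 4.37e-05), while Gstm1 was at -0.58 and -0.25 (difference -0.33, limma adjusted p 0.00278). For ribosome biogenesis, 18 of 25 genes were lower and 0 higher in shKAT2B than in shWDR5, and 10 were higher in shWDR5 than in shNS. Dkc1 was at -0.68 and 0.49, a difference of -1.17 (limma adjusted p 0.000195). For ER stress and the ATF4 response 15 of 25 were lower and 0 higher in shKAT2B than in shWDR5, and 6 were higher and 0 lower in shWDR5 than in shNS. By contrast Slc40a1 was at 0.38 and 0.31, with a difference of 0.07 that was not called (limma adjusted p 0.591). Cyp2c70 was at -0.69 and -0.46, with a difference of -0.23 that was not called (limma adjusted p 0.179). Foxa3 was at -0.43 and -0.58. Both falls were also called for shWDR5 minus shNS (limma adjusted p 0.0269 for Cyp2c70 and 0.00414 for Foxa3). A difference that was not called does not show that the hairpins act alike. Some lists also moved in shWDR5 minus shNS. Of 29 clotting and complement genes 7 were lower and 1 higher there, and 6 were higher and 2 lower in shKAT2B than in shWDR5. For 22 fatty acid oxidation genes these counts were 5 lower and 0 higher, then 3 higher and 3 lower. For 23 p53 targets they were 5 higher and 2 lower, then 8 higher and 2 lower. None of the 18 Kupffer cell and leukocyte markers was called between the knockdowns, and their median difference was 0.03.

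Promoters were last searched for the element of CREB, since KAT2B is a coactivator of this factor. Of 9236 tested genes with a promoter in the table, 2.97% hold the full site TGACGTCA within 250 bases before the start, against 3.92% of the 612 called higher and 2.71% of the 812 called lower. The shorter TGACG, which the full site contains, is held by 30.7% of tested genes, 27% of those called higher and 29.1% of those called lower. These shares are descriptions with no test. The promoter of Alox5 (chr6:116461179-116461428, minus strand, GRCm38.p6, RefSeq) is printed as that of a gene that rose, and it holds none of the 6 motifs spelled out so far on either strand, nor TTGCNNAA (a site of C/EBP factors), nor the TATA box TATAAA.
Alox5: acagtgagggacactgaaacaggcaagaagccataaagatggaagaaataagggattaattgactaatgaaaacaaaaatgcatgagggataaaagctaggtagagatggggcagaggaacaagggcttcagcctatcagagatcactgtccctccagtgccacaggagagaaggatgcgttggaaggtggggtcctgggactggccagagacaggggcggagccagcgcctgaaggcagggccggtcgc
The full site TGACGTCA is held by 1.55% of all promoters in the table.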

How the data were processed

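Per the probe annotation, the 10 libraries were hybridised to mouse gene arrays from Affymetrix. The authors deposited 1 table of intensity on a linear scale for 26913 features. Per the submitters' processing notes, Affymetrix Expression Console 1.1.1 was used, with the normalization not given in the sources used here. Precision is set by how many libraries there are, since arrays have no read depth.

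A single gene symbol was attached to 17873 features, several to 1128 and none to 7912, and 17815 were matched to RefSeq by gene identifier. They covered 16401 genes. For 847 genes with more than 1 feature the one with the highest mean was kept. The lowest 30 percent of genes by mean were left out, which left 11480. Values were log2(intensity + 1), and differences are on that scale, which understates those of dim genes.

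limma 3.58.1 in R 4.3.3 (lmFit, eBayes with trend) fitted hairpin and treatment over all 10 libraries (6 residual degrees of freedom) and a model of the 6 groups (4 residual degrees of freedom). Tests were two-sided, with Benjamini-Hochberg adjustment over all genes tested and a threshold of 0.05. The fit was also run on simulated data with noise drawn independently for each gene and library. Such data lack the component shared by libraries here, so that run cannot show the error rates for these data. Tables, motif searches and figures used matplotlib 3.10.9, numpy 2.4.6 and pandas 2.3.3 in Python 3.11.15.

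Named genes are Kat2b, Hamp, Akr1c14 and Alox5, the 15 highest and 15 lowest called genes that do not overlap within either treatment, and up to 4 called members of each list by smallest p (with under 2 called, up to 2 more that did not pass). Others are said to be picked with their values seen, or stand for a role in a list: Kat2a, Wdr5, Hamp2, Hjv, Tfr2, Nfe2l2, Keap1, Alb, Alox5ap, Mdm2, Pck1, G6pc, Efna1, Nr4a1 and Thy1. The comparison, the rule and the 30 lists were chosen with earlier results of these data known. Other settings tried were fewer libraries, each library left out, the library letter as a block, the split of libraries, quantile normalization, median centring, other filters, a pseudocount of 16, the mean of a gene's features and no trend. Every feature by itself and no pseudocount were added after seeing the data. Of the 116 genes named by the rule 91 had a promoter in the RefSeq table.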

Additional observations from a re-analysis of the deposited data

Results flagged for a closer look

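Features that no named comparison uses also differed between the hairpins. Of 4769 tested features with no gene symbol, 256 were called in shKAT2B minus shNS (5.37%), 120 higher and 136 lower. Of 884 features with several symbols 46 were called (5.2%), 27 higher and 19 lower. Among 13186 features with 1 symbol, each tested by itself in the same fit, 1609 were called (12.2%). The lowest unnamed feature, 10545086, lay between 8.22 and 8.94 in shKAT2B and between 10.05 and 10.39 in shNS, a difference of -1.64 ± 0.16 (limma adjusted p 0.000798). No gene is given for it here.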

How the results depend on the processing

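Among the 116 genes named by the rule no called value changed its sign under the settings tried, which for the stricter filter covers the 100 that passed it. For all 1792 called genes the sign was compared with the split, and none turned. The 1792 calls over both treatments became 3397 with the replicate letter as a block and 4768 with the split of libraries, and 0 (1555 at an unadjusted p below 0.05 by limma) when only the 4 glucagon libraries of shNS and shKAT2B were fitted. The 154 calls under glucagon became 38 with only the 7 shNS and shKAT2B libraries, 3127 with the block, 3127 with the split and 242 after median centring. The 58 in PBS became 0 with only those 7 libraries (1489 at an unadjusted p below 0.05), 4256 with the block, 2112 with the split, 38 with no filter and 14 with no trend. The 0 calls of the interaction became 1383 with the block and 2 with the split. The 2609 of shKAT2B minus shWDR5 became 4139 with the block and 5788 with the split. Fewer libraries leave fewer degrees of freedom, and the cause of the other changes was not tested. As each library was left out the counts ranged from 598 to 2122 over both treatments, from 0 to 156 under glucagon, from 0 to 76 in PBS and from 1443 to 2680 against shWDR5, where the lowest were without shWDR5 PBS A (1443) and shKAT2B PBS A (1519). Under glucagon 0 were called without shNS glucagon A or B and 1 without shKAT2B glucagon B. The interaction and the PBS difference could not be fitted without the lone shKAT2B PBS library.

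The labels do not say that the letters A and B mark a shared preparation. In the 4 groups that hold both letters, differences between A and B correlated at 0.721 to 0.844 between groups across genes, a hint from the data that these letters go together. The lone shKAT2B PBS and shWDR5 PBS libraries, both lettered A, fall with the B libraries, so the letter was not used as a pairing. Of 104 called genes among the 116 named, 57 stayed called with every library left out. With 1 PBS library of shKAT2B, the PBS values have no replicate of their own.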
